A study of Rattus norvegicus with 12 samples.

Results

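Messenger RNA levels of 9 genes that move sterols and fats out of, between and into cells were followed in knee articular cartilage of rats with surgically induced osteoarthritis (OA). The 9 genes are Abcg1, Abca1, Pltp, Apoe, Nr1h3, Lpl, G0s2, Pnpla2 and Fabp4, out of 14218 genes with a probe set of their own. They were chosen by name for sterol efflux, lipoprotein and triglyceride handling, after earlier results of these arrays were known. Those earlier results included 8-week values of Pltp and G0s2, so comparisons that use the 8-week arrays are a description for the 9 genes. Counts of calls in the comparisons that use the 8-week arrays stand beside the share over all probe sets, and no test result is read from them. Every probe set that the array annotation ties to only 1 of these symbols was used, 15 in all. Of these 15, 10 passed a filter on low values and stand for 8 genes, and 5 did not.

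The 12 arrays formed 4 groups of 3: cartilage taken 2 weeks or 8 weeks after surgery, from OA and from sham-operated animals at each time. The labels give neither strain, sex nor age, and they do not say whether the 3 arrays of a group are separate animals or pools, so p-values measure only the spread between these arrays. The operation is cited from a published rat model and is not described further in the labels, and sham animals carried an operation as well. Total RNA of homogenized cartilage was hybridized, so cells attached to the cartilage were measured with the chondrocytes.

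Cells cannot break down the sterol ring, so surplus cholesterol leaves them through the membrane transporters ABCA1 and ABCG1. These load it onto apolipoproteins such as APOE, and the phospholipid transfer protein PLTP remodels the resulting particles. Nr1h3 encodes LXR alpha, a nuclear receptor that binds oxysterols and switches on Abca1, Abcg1, Pltp, Apoe and Lpl in macrophages. Fat enters cells after lipoprotein lipase (Lpl) has cut circulating triglyceride, fatty acids are carried in the cytoplasm by FABP4, and stored triglyceride is cut by the lipase PNPLA2 (ATGL), which the G0S2 protein inhibits.

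LXR alpha with its partner RXR binds a direct repeat of AGGTCA with a spacer of 4 bases, and the promoter of Abca1 is the textbook site for it. RefSeq windows of 300 bases, 250 before and 50 after an annotated transcription start in the rat build GRCr8, were found for 6 of the 9 genes (Abca1, Pltp, Apoe, Nr1h3, G0s2 and Pnpla2). Both strands of the 8 windows of these genes were searched for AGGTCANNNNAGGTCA with at most 3 of its 12 fixed letters differing. The Abca1 and G0s2 windows are shown because they hold the only matches, to the repeat and to its half-site. In the first, at chr5:72596424-72596723 on the minus strand, capitals mark the repeat-like stretch at bases 181 to 196 of the window. It lies on the strand opposite to the gene and differs from the repeat at 3 letters. In the second, at chr13:107335899-107336198 on the minus strand, capitals mark a half-site on the opposite strand at bases 274 to 279.
Abca1: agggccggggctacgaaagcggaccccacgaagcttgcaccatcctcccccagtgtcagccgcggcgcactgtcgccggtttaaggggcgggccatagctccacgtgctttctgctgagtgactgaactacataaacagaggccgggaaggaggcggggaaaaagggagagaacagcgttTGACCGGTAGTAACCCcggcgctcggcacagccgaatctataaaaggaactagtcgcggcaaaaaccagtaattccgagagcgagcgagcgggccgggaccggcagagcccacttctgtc
G0s2: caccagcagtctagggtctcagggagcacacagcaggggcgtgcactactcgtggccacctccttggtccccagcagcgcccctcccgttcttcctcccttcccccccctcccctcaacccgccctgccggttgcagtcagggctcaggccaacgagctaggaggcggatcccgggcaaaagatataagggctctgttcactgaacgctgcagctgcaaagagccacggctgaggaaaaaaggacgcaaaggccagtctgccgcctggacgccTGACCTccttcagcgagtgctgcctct
The repeat was found at this tolerance in 21.9% of all 33469 windows and the exact half-site AGGTCA in 16.2%, so both matches are common and are given as a description of the sequence only. The windows of Pltp, Apoe, Nr1h3 and Pnpla2 held neither.

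All values are log2 intensities after GCRMA, so a difference of 1 is a doubling. The arrays were alike in coverage, with 48.3% to 49.9% of probe sets above log2 4. All 12 measured chondrocyte markers were above log2 9 in every array, with the type II collagen gene Col2a1 between 15.88 and 16.27. RNA of other cells was also present and differed between the 8-week groups. At 8 weeks the mean level of 20 macrophage markers was 5.81, 6.06 and 6.06 with OA, against 6.84, 8.76 and 9.18 with sham surgery. The mean level of 17 skeletal muscle markers was 14.6, 11.2 and 9.41 in OA and 10.1, 5.57 and 7.32 in sham, and these ranges overlapped. OA 8 weeks replicate 1 stood apart, with the highest muscle level and a 3-prime minus 5-prime difference of 0.885 for the Gapdh control against 1.24 to 1.47 in the other 11 arrays. Sham 8 weeks replicate 1 had the lowest macrophage and the highest muscle level of the sham arrays at that time. All 6 osteoclast markers were lower in OA at 8 weeks, at a mean level of 8.30, 9.27 and 9.42 against 10.84, 10.91 and 11.13 in sham. Above the filter level, 5 of 5 osteoclast and 5 of 17 macrophage markers fell in limma, beside 227 of all 9247 genes tested. Of 16 muscle markers 0 were called. Acp5 differed by -2.53, Mmp9 by -3.62 and Itgb3 by -3.46, and the part of osteoclasts in the values of Abcg1, Pltp and Apoe was not tested. Of the 11 adipocyte markers, 7 stayed under log2 4 in every array, among them the defining markers Adipoq, Lep, Plin1 and Cidec. The 8-week mean of Cfd was 6.29 with sham surgery and 1.76 with OA. That of Gpd1, left out by the filter, went the other way, at 2.651 with sham surgery and 5.275 with OA. This OA mean of Gpd1 rests on 1 array, which read 10.215, so no direction is read from it. At 8 weeks 7 of the 11 were higher in OA and 4 lower, mostly by small differences under log2 4. Cfd, Gpd1 and the 3 osteoclast genes were named after their values were seen.

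At 8 weeks the genes fell into 3 patterns. The export and lipoprotein genes Abcg1, Pltp and Apoe (leading probe set) were lower in every OA array than in every sham array, and so was 1 of the Abca1 probe sets. The lipolysis inhibitor gene G0s2 was higher in every array, and Fabp4 lay above all sham arrays in 2 of 3. Nr1h3, Lpl and Pnpla2 overlapped between the groups. Read within same-numbered arrays of that time, OA was higher in 3 of 3 for G0s2, Fabp4 and Nr1h3, and lower in 3 of 3 for Abcg1, Pltp, the leading Apoe and the second Abca1 probe set. The share of all probe sets with such agreement was not counted, so nothing is read from it. At 2 weeks none of the 7 genes with a level above log2 4 passed.

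**Figure D1:**
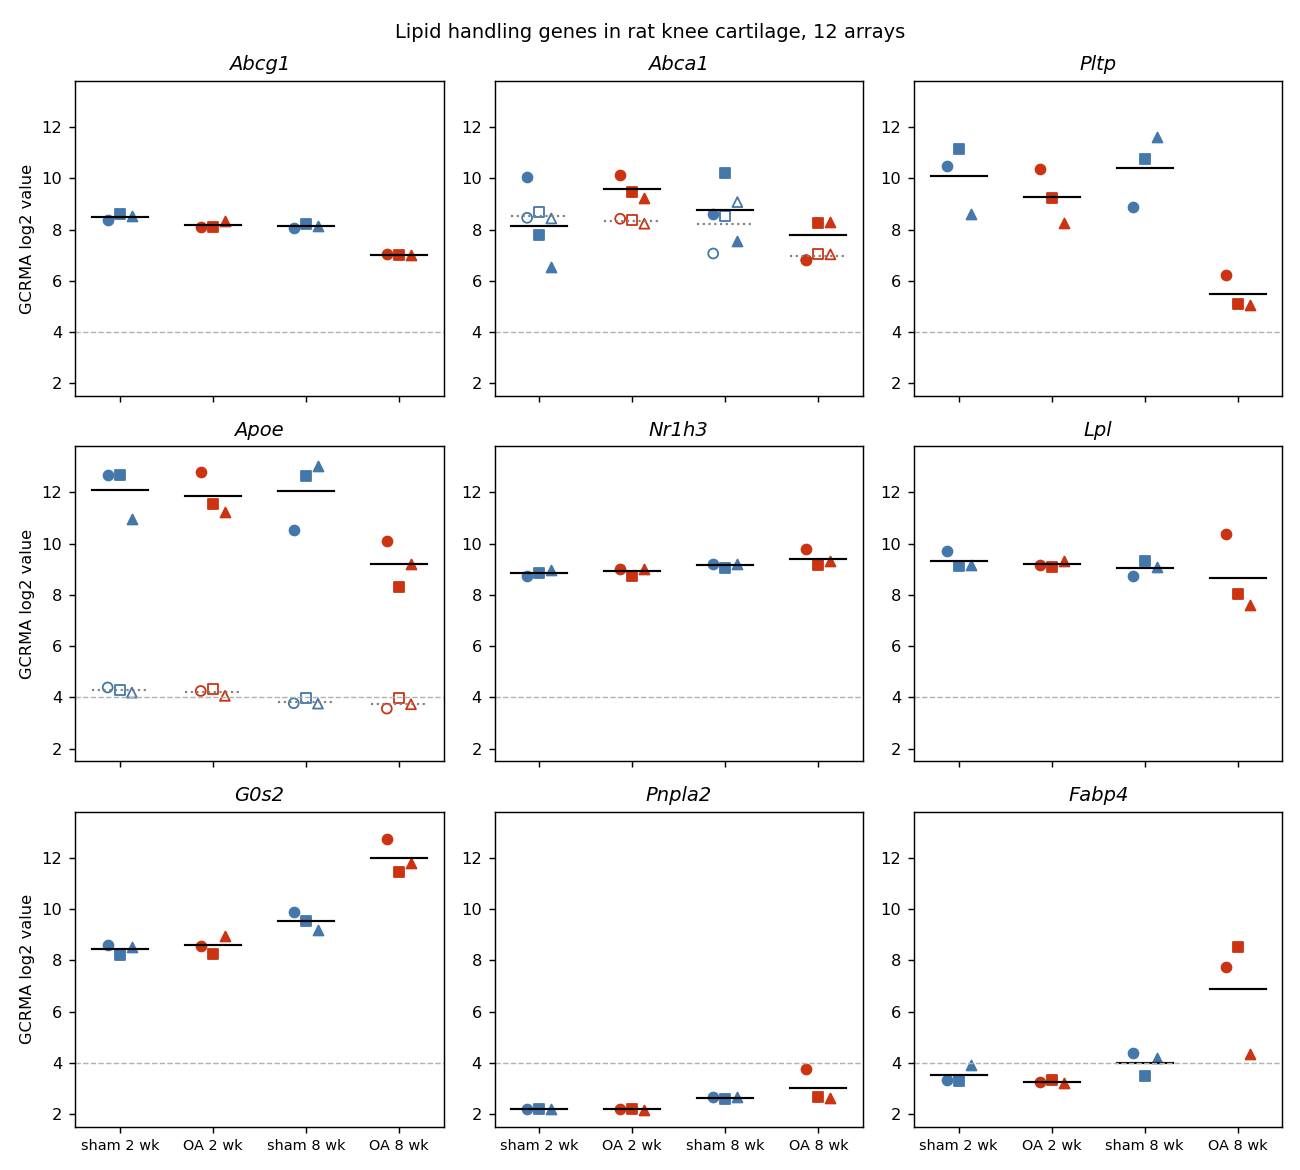
GCRMA log2 values of the 9 genes (vertical axes) in the 4 groups (horizontal axis; blue sham, red OA; circle, square and triangle for replicates 1, 2 and 3; lines for group means). Open symbols with dotted lines show the second probe set of Abca1 and Apoe, and the dashed line at 4 is the filter level. The 3 OA 8-week values of Abcg1 lie between 6.99 and 7.07, under all other arrays, while those of Fabp4 spread from 4.35 to 8.52.

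Abcg1, which exports cholesterol to high-density lipoprotein, had the narrowest spread of the genes that differed. At 8 weeks OA read 7.07, 6.99 and 7.01, and sham read 8.05, 8.22 and 8.16. All 3 OA arrays thus read about 1 unit lower than the nearest sham array. The mean was 7.02 ± 0.04 with OA and 8.14 ± 0.09 with sham surgery (SD, n = 3), a difference of -1.12 ± 0.10 (limma standard error), which is 2.17-fold lower. At 2 weeks Abcg1 read 8.10, 8.12 and 8.34 in OA and 8.36, 8.60 and 8.52 in sham. The groups did not overlap, but the gap between them was 0.02 and smaller than the spread within either group. The 2-week difference of -0.31 ± 0.10 did not pass limma (unadjusted p = 0.0103, adjusted p = 1.0). The order of its group means from high to low was sham 2 weeks (8.49), OA 2 weeks (8.19), sham 8 weeks (8.14) and OA 8 weeks. The neighbours OA 2 weeks and sham 8 weeks did not differ beyond their spread. The other 2 probe sets of Abcg1 stayed between 2.12 and 2.30 in all arrays, under the filter level, and carry no information on it.

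In a tissue sample, fewer cells that express a gene and less RNA per cell cannot be told apart. Within groups, the lowest Abcg1 array was that of the macrophage level in 1 of 4. With the macrophage level as a covariate the 8-week difference of Abcg1 was -1.09 ± 0.16, and with the muscle level it was -1.06. With any 1 array left out it lay between -1.17 and -1.08. The osteoclast level, which was also lower in OA at 8 weeks, was not used as a covariate.

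Abca1, which passes cholesterol and phospholipid to lipid-poor apolipoproteins, had 2 probe sets above the filter level, whose 2-week differences had opposite signs. The leading one read 10.13, 9.46 and 9.23 in OA and 10.05, 7.80 and 6.55 in sham at 2 weeks. The groups overlapped, with sham replicate 3 far under the rest, and the difference of 1.47 ± 0.89 did not pass limma (adjusted p = 1.0). At 8 weeks it read 6.80, 8.25 and 8.29 in OA and 8.59, 10.20 and 7.55 in sham, which again overlapped, for a difference of -1.004 ± 0.89. That difference was -0.29 without sham 8 weeks replicate 2, -0.51 without OA 8 weeks replicate 1 and -1.62 without sham 8 weeks replicate 3, and turned to 0.01 with the muscle and 0.20 with the macrophage level as a covariate. The second probe set was steadier at 2 weeks, at 8.42, 8.37 and 8.23 in OA and 8.46, 8.70 and 8.44 in sham (-0.19 ± 0.39, adjusted p = 1.0 in limma). At 8 weeks it read 6.81, 7.04 and 7.03 in OA against 7.07, 8.52 and 9.07 in sham. All 3 OA arrays lay under the sham arrays, although sham replicate 1 exceeded the nearest OA array by 0.02, and the difference was -1.26 ± 0.39. Without sham 8 weeks replicate 1 this difference was -1.84, with the muscle level as a covariate -0.66 and with the macrophage level 0.01. In all 4 groups the lowest and the highest array of this probe set were those of the macrophage level. The 2 remaining probe sets of Abca1 stayed between 2.86 and 3.70.

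Pltp, the phospholipid transfer protein gene, had the widest range of the 9 genes, from 5.06 to 11.63. At 8 weeks OA read 6.24, 5.10 and 5.06, and sham read 8.88, 10.74 and 11.63. The OA arrays lay under every sham array by at least 2.64. The means of 5.47 ± 0.67 in OA and 10.42 ± 1.40 in sham (SD, n = 3) differed by -4.95 ± 0.84, which is 30.9-fold lower in OA. With 1 array left out the fold ran from 20.3 (without sham replicate 3) to 52.6 (without sham replicate 1). At 2 weeks OA read 10.35, 9.22 and 8.24, and sham read 10.48, 11.15 and 8.60. These overlapped, OA was lower in 3 of 3 same-numbered arrays, and the difference of -0.80 ± 0.84 did not pass limma (adjusted p = 1.0). The means of sham 8 weeks, sham 2 weeks (10.08) and OA 2 weeks (9.27) did not differ beyond their spread, and OA 8 weeks was under them.

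Apoe, the apolipoprotein that macrophages secrete with exported cholesterol, was also lowest in OA at 8 weeks. It read 10.12, 8.33 and 9.21 in OA and 10.52, 12.65 and 13.04 in sham at 8 weeks. The groups did not overlap, but OA replicate 1 and sham replicate 1 were 0.41 apart. The means of 9.22 ± 0.89 and 12.07 ± 1.35 (SD, n = 3) differed by -2.85 ± 0.76, or 7.20-fold lower. With 1 array left out the fold ran from 5.15 (without sham replicate 3) to 12.3 (without sham replicate 1). At 2 weeks Apoe read 12.79, 11.54 and 11.24 in OA and 12.67, 12.67 and 10.97 in sham (-0.25 ± 0.76, adjusted p = 1.0 in limma). The means of sham 2 weeks (12.10), sham 8 weeks (12.07) and OA 2 weeks (11.86) did not differ beyond their spread. A second Apoe probe set, made from the same transcript entry, lay between 3.56 and 4.39, around the filter level, and differed by -0.07 ± 0.12 at both times.

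Macrophage markers moved with Pltp and Apoe in all groups but OA 8 weeks. In 3 of 4 groups the lowest array for both genes was the array with the lowest macrophage level, and likewise for the highest. Within OA 8 weeks the order differed, as replicate 1 had the lowest macrophage level (5.81) but the highest Pltp (6.24) and Apoe (10.12). For both genes the highest array was that of the muscle level in 3 of 4 groups as well. Their lowest array was that of the muscle level in 2 of 4 for Pltp and 1 of 4 for Apoe. With the macrophage level as a covariate the 8-week difference was -2.06 for Pltp and -0.38 for Apoe, against -5.17 and -2.83 with the muscle level. The macrophage level was itself lower in OA at 8 weeks by 2.28, with 18 of 20 markers lower, so the covariate overlaps the difference between the groups and its part in the difference was not tested. Of the macrophage markers, Itgam and Cx3cr1 were under log2 4 in every array. The 4 with the highest mean signal differed unequally at 8 weeks, Lyz2 by -0.72, Cd14 by -0.10, Ctss by -1.68 and Laptm5 by -2.54.

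**Figure D2:**
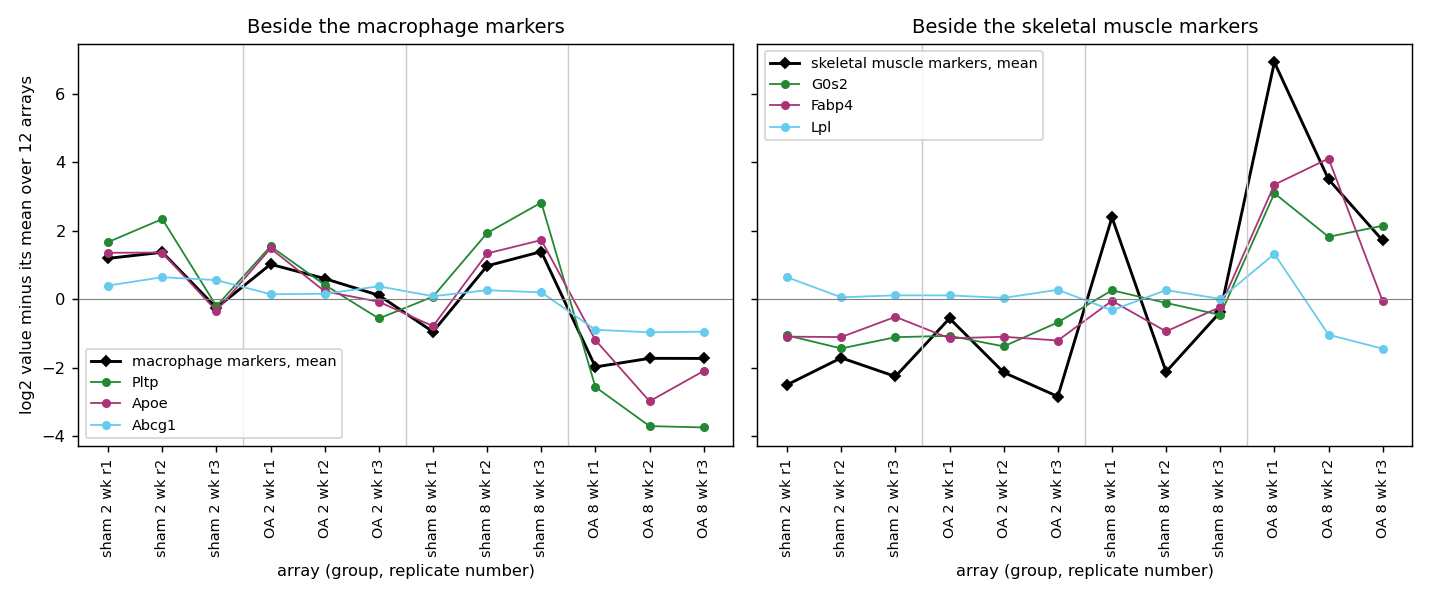
Log2 values centred on their mean over 12 arrays (vertical axis) for each array (horizontal axis, r1 to r3 for replicates). On the left Pltp, Apoe and Abcg1 stand beside the mean of 20 macrophage markers, and on the right G0s2, Fabp4 and Lpl beside the mean of 17 muscle markers. Pltp, Apoe and the macrophage level are each lowest in replicate 3 of sham 2 weeks and in replicate 1 of sham 8 weeks among the arrays of that group.

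Nr1h3, the gene of the receptor LXR alpha, overlapped between OA and sham at both times. At 8 weeks it read 9.78, 9.15 and 9.34 in OA and 9.21, 9.05 and 9.20 in sham. The ranges overlapped, although OA was higher in 3 of 3 same-numbered arrays, and the difference was 0.27 ± 0.15. At 2 weeks it read 9.01, 8.75 and 9.02 in OA and 8.75, 8.85 and 8.97 in sham, a difference of 0.07 ± 0.15 that did not pass limma (adjusted p = 1.0). Its 12 values spanned 1.03 in all. The group means ran from sham 2 weeks (8.86) over OA 2 weeks (8.93) and sham 8 weeks (9.15) to OA 8 weeks (9.42), and neighbours overlapped except OA 2 weeks and sham 8 weeks, which lay 0.03 apart at their nearest arrays.

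Lpl, the lipoprotein lipase gene, was split within OA at 8 weeks. It read 10.39 in OA replicate 1 and 8.03 and 7.62 in replicates 2 and 3, against 8.74, 9.33 and 9.08 in sham. Replicate 1 lay above and the other OA arrays lay under all sham arrays. The difference over all 3 was -0.37 ± 0.57 and without OA 8 weeks replicate 1 it was -1.22, and without replicate 3 it was 0.16. OA 8 weeks replicate 1 had the highest muscle level. At 2 weeks Lpl read 9.18, 9.10 and 9.34 in OA and 9.71, 9.12 and 9.18 in sham (-0.13 ± 0.57, adjusted p = 1.0 in limma).

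G0s2, whose product blocks the lipase PNPLA2, was the member that was higher in all OA arrays at 8 weeks. It read 12.73, 11.46 and 11.79 in OA and 9.90, 9.53 and 9.18 in sham. The OA arrays lay above the sham arrays by at least 1.56. The means of 11.99 ± 0.66 and 9.54 ± 0.36 (SD, n = 3) differed by 2.46 ± 0.32, or 5.49-fold. At 2 weeks it read 8.57, 8.26 and 8.96 in OA and 8.58, 8.20 and 8.53 in sham, which overlapped (0.16 ± 0.32, adjusted p = 1.0 in limma). The 2-week means of 8.44 in sham and 8.60 in OA did not differ beyond their spread, and sham 8 weeks and OA 8 weeks stood above them in that order. The 8-week difference was 2.09 without OA replicate 1, 1.94 with the muscle level as a covariate and 1.84 with the macrophage level.

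Pnpla2, the lipase that G0S2 inhibits, was under log2 4 in all 12 arrays and was not tested. It read 3.75, 2.68 and 2.62 in OA and 2.65, 2.60 and 2.66 in sham at 8 weeks, and 2.16 to 2.21 in all 6 arrays at 2 weeks. Values this low give no usable level, so nothing can be said about the lipase beside its inhibitor.

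Fabp4, the fatty acid carrier of adipocytes, macrophages and capillary endothelium, was near the floor in most arrays. It read 7.75, 8.52 and 4.35 in OA at 8 weeks and 4.36, 3.47 and 4.18 in sham. OA replicates 1 and 2 were far above, and replicate 3 lay within the sham range, so the groups overlapped. The difference was 2.87 ± 0.84, and it was 2.43, 2.05 and 4.13 without OA replicate 1, 2 or 3 and 1.46 with the muscle level as a covariate. Its sham values lie around the filter level, and the gene passed the filter only through 8-week arrays. At 2 weeks it was 3.20 to 3.31 in OA and 3.30 to 3.89 in sham, all under log2 4, so no 2-week level can be compared. Its lowest array was that of the muscle level in 3 of 4 groups and its highest in 1 of 4. Both 2-week groups and the lowest sham 8-week array of Fabp4 (3.47) lie under log2 4, so nothing is read from this order. Of the endothelial markers, Vwf, Esam and Tie1 were under log2 4 in every array, and 8 of 11 were lower in OA at 8 weeks. Muscle markers were higher there in 16 of 17. The 4 with the highest mean signal differed by 0.30 (Myh1), -0.09 (Tnni2), 1.69 (Tnnt3) and 4.45 (Acta1). The part of muscle or of other attached tissue in the values of G0s2, Fabp4 and Lpl was not tested.

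**Figure D3:**
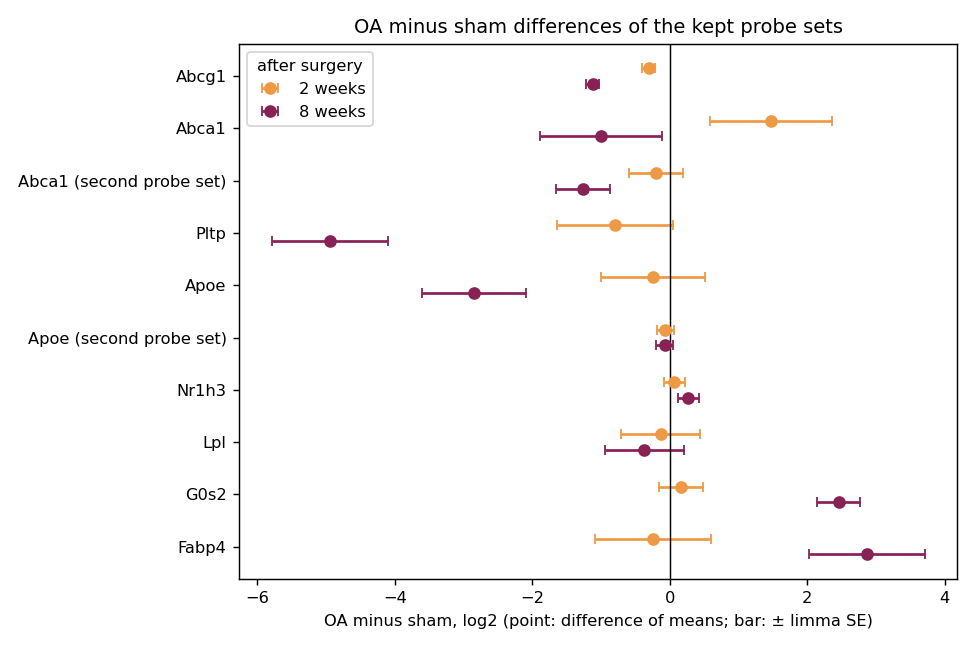
OA minus sham differences on the log2 scale (horizontal axis) at 2 and 8 weeks for the 10 probe sets that passed the filter (rows). Points are differences of means of 3 against 3 arrays and bars are ± 1 limma standard error. The 2-week points lie between -0.80 and 1.47, and the 8-week points between -4.95 and 2.87.

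For OA against sham 2 weeks after surgery, 0 of the 10 member probe sets passed limma, beside 0% of all 15934 probe sets. Only 9 of the 10 had a 2-week value above log2 4, the other being that of Fabp4. At an unadjusted p under 0.05 there were 1 of 10 (Abcg1) and 269 of 15934, which is 1.69%. Of the 10, 2 had all OA arrays under all sham arrays (Abcg1 and the second Abca1 probe set), against 3.46% of all probe sets, and none had all above, against 1.91%. The replicate number as a block left the count at 0.

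At 8 weeks, 1 of the 10 was called higher (G0s2) and 2 lower (Abcg1 and Pltp), beside 1.51% and 1.95% of all probe sets. Groups did not overlap for 1 above and 4 below, beside 12.3% and 12.8%. As the genes were chosen with these results known, nothing is read from these counts. The counts also moved with single arrays: over all probe sets the 552 calls became 979 without sham 8 weeks replicate 1, 132 without replicate 2 and 110 without replicate 3, and 230 without OA 8 weeks replicate 2. Pltp was not among the calls when OA replicate 2, or number 2 or 3 of the sham arrays, was left out. With only the 6 arrays compared, or with the muscle or the macrophage level as a covariate, Abcg1 was the 1 member called.

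**Figure D4:**
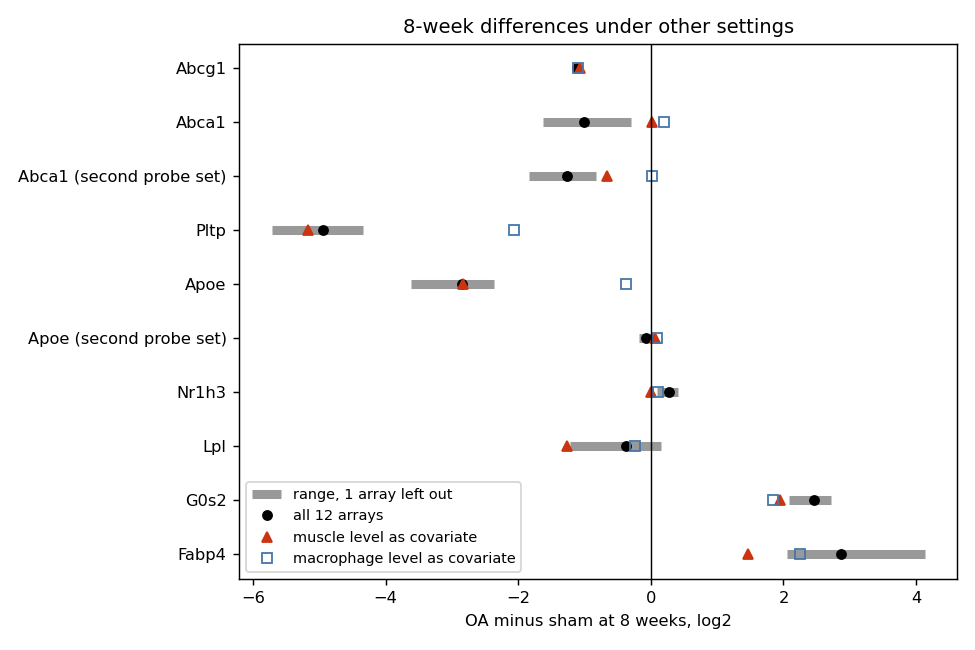
OA minus sham differences at 8 weeks (horizontal axis, log2) of the 10 probe sets (rows) with all 12 arrays, with 1 array left out in turn (grey range) and with the muscle or macrophage marker level as a covariate. Abcg1 stays between -1.17 and -1.06 in all of these, with a standard error of 0.16 with the macrophage level against 0.097 in the main fit. Apoe moves to -0.38 and Pltp to -2.06 with the macrophage level, which itself differs between the groups. The osteoclast level was not used as a covariate.

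The difference between the 8-week and the 2-week OA effect was -0.81 ± 0.14 for Abcg1, -4.15 ± 1.19 for Pltp, -2.60 ± 1.07 for Apoe, 2.30 ± 0.45 for G0s2 and 3.11 ± 1.19 for Fabp4. None of the 10 probe sets was called, beside 0.138% of all. With the replicate number as a block within each time G0s2 was called. Without sham 8 weeks replicate 1 the calls were Abcg1 and the second Abca1 probe set, and without OA 8 weeks replicate 3 Fabp4. These 8-week values were known when the genes were chosen, so nothing is read from the calls.

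The times were also compared within each group. From 2 to 8 weeks within OA, Pltp was lower by 3.81 ± 0.84 and Apoe by 2.64 ± 0.76, a difference of -1.16 ± 0.10 was seen for Abcg1, and G0s2 was higher by 3.39 ± 0.32, or 10.5-fold. Within sham the corresponding values were 0.34 ± 0.84 for Pltp, -0.03 ± 0.76 for Apoe, -0.35 ± 0.10 for Abcg1 and 1.10 ± 0.32 for G0s2. All 3 sham arrays of G0s2 at 8 weeks lay above those at 2 weeks. Within OA 3 member probe sets were called higher and 5 lower, beside 21.7% and 12.4% of all, and within sham 1 and 2, beside 12.5% and 6.24%. Leaving out sham 2 weeks replicate 2 or sham 8 weeks replicate 1 took the calls within sham to 0, and leaving out OA 2 weeks replicate 2 took those within OA to 5. With array medians made equal, the median change of all probe sets moved from 0.08 to -0.09 within sham and from 0.09 to -0.09 within OA. The split of all calls into higher and lower then went from 1984 and 995 to 1398 and 1365 within sham, and from 3461 and 1969 to 2238 and 2840 within OA, and G0s2 was no longer called within sham. These comparisons share the 8-week arrays with the choice of the genes, and Fabp4, among the higher calls within OA, passed the filter only through those arrays, so nothing is read from the counts of members. Age and any processing difference between the times cannot be told apart.

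The wider network of lipid genes was examined with 6 lists that exclude the 9 genes, 109 tested genes in all. The lists were also chosen with earlier results of these arrays known, which limits what their tests on the 8-week arrays can show. At 2 weeks 0 of 109 passed limma, with 0 at an unadjusted p under 0.05. At 8 weeks 1 of 109 passed, which is 0.917% beside 3.48% of the 9247 genes tested. It was Acsl5, which activates long-chain fatty acids, and it read 10.19, 10.47 and 10.73 in OA and 11.20, 11.25 and 11.22 in sham. Acsl5 fell by 0.76 ± 0.14 (1.69-fold, adjusted p = 0.0192 in limma). Its call was lost with only the arrays compared (adjusted p = 0.117), with the muscle or macrophage covariate (0.267 and 0.238) and without all number 1 arrays (0.064). Of the single 8-week arrays, leaving out OA replicate 2 gave 0.059, and leaving out number 2 or 3 of the sham arrays gave 0.0733 and 0.0778. The other 5 lists had no call at 8 weeks.

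By list, the median 8-week differences lay between -0.27 and 0.15, beside -0.03 for all genes. The median was -0.14 over 15 genes of sterol efflux, sterol trafficking and LXR partners and 0.01 over 14 apolipoproteins, lipoprotein receptors and plasma lipid enzymes. It was -0.27 over 14 genes of lipolysis and lipid droplets, -0.07 over 24 genes of fatty acid binding, activation and triglyceride synthesis, and -0.07 over 20 genes of cholesterol synthesis. Fatty acid oxidation genes had a median of 0.15 over 22 genes, of which 15 were higher in OA, beside 4123 of 9247 genes (44.6%). The muscle marker level was higher by 4.08 in the same comparison, and its part in these values was not tested. Cholesterol synthesis genes were higher in OA in 15 of 20 at 2 weeks and lower in 14 of 20 at 8 weeks, with 0 called at either time, beside 45.3% of all genes higher at 2 weeks and 55.4% lower at 8 weeks.

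Between 2 and 8 weeks more of these genes changed, and age and any processing difference between the times cannot be told apart here either. Within OA 12 rose and 10 fell of 109, which is 20.2% beside 29.3% of all genes, and within sham 4 rose and 2 fell, 5.5% beside 14.8%. Nr1h2, the gene of the second LXR receptor, rose by 1.25 ± 0.13 within OA (adjusted p = 4.05e-05) and by 1.22 ± 0.13 within sham (adjusted p = 5.64e-05). Acads, an enzyme of short-chain fatty acid oxidation, rose by 3.06 ± 0.16 within OA and 3.00 ± 0.16 within sham. Its 2-week values were 3.125 to 3.701, all under log2 4. Acads thus passed the filter only through 8-week arrays, and these sizes are not measured folds. Ucp2, a mitochondrial carrier gene, had a difference of -3.91 ± 0.45 within OA and -2.63 ± 0.45 within sham, both past limma (adjusted p = 8.56e-05 and 0.00178). At 8 weeks Ucp2 read 2.37 to 2.79 in OA, all under log2 4, and 2.81, 3.08 and 4.84 in sham. The size of its fall is thus not a measured fold in OA or in sham. Within OA, the oxidized LDL receptor gene Olr1 rose by 3.31 ± 0.70 (adjusted p = 0.00448) and the LPL inhibitor gene Angptl4 changed by -0.92 ± 0.21 (adjusted p = 0.00633). Without all number 1 arrays, the calls of Ucp2 within sham and Olr1 within OA were lost (adjusted p = 0.0683 and 0.0794 in limma). Whether the change of Olr1 or Angptl4 differed between OA and sham is the same contrast as the difference of the OA effects, in which 0 of the 109 genes passed limma, beside 0.162% of all genes, and 7 had an unadjusted p under 0.05.

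The genes most like each member over the 12 arrays were taken by the smallest root-mean-square difference of profiles centred on their own means, over 9185 genes. For Apoe they were S1pr1 (0.31), Mpeg1 (0.34) and Gbp2 (0.38), against a median of 1.497 over all genes. Mpeg1 is a macrophage gene, and S1pr1 encodes a receptor for sphingosine 1-phosphate. For Pltp they were the complement genes C1qc (0.75) and C1qa (0.76), both on the list of macrophage markers, and Cndp1 (0.83), against a median of 2.20. For G0s2 they were Acss3 (0.41), the mineralocorticoid receptor gene Nr3c2 (0.416) and Greb1 (0.425), against a median of 1.46. For Fabp4 they were Nr4a2 (0.78), Ptprr (0.82) and Gem (0.85), against 1.73, and for the leading Abca1 probe set Car8 (0.66), Ccnb1 (0.79) and Robo2 (0.82), against 1.25. Among the members themselves, Pltp and Apoe differed by 0.85 and G0s2 and Fabp4 by 0.99. Likeness was given no test.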

How the data were processed

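Total RNA of rat knee cartilage was hybridized to 12 biotin-labelled 1-colour Affymetrix arrays, 3 in each of 4 groups. The authors deposited log2 values of 31099 probe sets, made with GCRMA (background correction, normalization between arrays and summary per probe set) per the submitters' processing notes, with no version given. They were used as deposited. The number of arrays limits the precision.

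Symbols came from the array annotation, with 20832 probe sets carrying 1 symbol, 436 several and 9831 none. The Entrez ID of 20764 was in the current rat table, which changed 0 symbols. Probe sets above log2 4 in at least 3 of 12 arrays were kept (15934), without 57 control probe sets. With 1 mean per group, limma 3.58.1 in R 4.3.3 fitted each, and calls needed p under 0.05 after adjustment over all kept probe sets by Benjamini and Hochberg's method. It was tested on simulated data. For the pathway lists and the likeness of profiles, the brightest kept probe set of each gene was used. Marker levels and the leading probe sets of members took the brightest, kept or not, and 17 of the 20 macrophage markers were kept. Tables used pandas 2.3.3 and numpy 2.4.6 in Python 3.11.15, and plots matplotlib 3.10.9.

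The members and lists were chosen with earlier results of these data known. All members are named, with up to 3 called genes per pathway list, direction and comparison with the smallest p, from which the text takes those described, and the 3 genes most like each member with an SD over 1. Deviations from group means of same-numbered OA and sham arrays correlated at 0.333 to 0.527 at 2 weeks and 0.119 to 0.239 at 8 weeks. The grounds for a pairing are weak at 8 weeks, where OA replicate 3 with sham replicate 2 reached 0.142. The main fit and its standard errors therefore use no pairing. The number was a block only in alternative fits, within each time and over all arrays. For G0s2 at 8 weeks the block within each time gave a standard error of 0.188. Across times, same-numbered arrays had correlations from -0.497 to 0.241.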

Additional observations from a re-analysis of the deposited data

How the results depend on the processing

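Member calls outside the 2-week comparison use values known when the genes were chosen and are given as counts only. Of the 10 member probe sets, the calls at 2 weeks stayed at 0 under all alternatives. At 8 weeks 3 calls became 5 with array weights, 6 without all 4 number 1 arrays, and 1 with only the arrays compared, the muscle covariate or the macrophage covariate, and 2 to 5 with 1 array left out. The difference of the OA effects went from 0 calls to 2 with array weights, 1 with the replicate block within each time and 0 to 2 with 1 array left out. Within sham over time 3 calls became 1 with the filter at log2 6 and 0 without the number 1 arrays, and 0 to 3 with 1 array left out. The filter at log2 6 left 8 member probe sets to test and removed the second Apoe probe set, which was 1 of the 3 calls. Within OA over time 8 calls became 4 with the muscle covariate and 5 to 8 with 1 array left out. Both covariates were centred within each time, so the comparisons over time are not adjusted for a change of the muscle or macrophage level between the times. No called member difference changed sign. The fit on only the arrays compared could not be made for the difference of the OA effects, nor the block within each time for the comparisons over time. Over all probe sets, the 552 calls at 8 weeks were 1037 with the replicate block within each time, 1567 with array weights, 283 with equalized medians, 362 without a filter, 159 with the macrophage covariate, 32 with the muscle covariate, 27 with only the arrays compared and 110 to 979 with 1 array left out, so the background shares move as well. The replicate block changed no other member call. Signal near the filter level limits what can be said of Fabp4, Pnpla2 and the second Apoe probe set.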
